A study of Mus musculus with 18 samples.

Results

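Urea cycle and ammonia-handling genes were described in the liver RNA-seq of 18 male mice from a study of gene therapy for lysosomal acid lipase deficiency. The group was defined by name and comprised 8 genes: Cps1, Otc, Ass1, Asl and Arg1, which encode the enzymes of the cycle, Nags, whose product makes the activator of the first enzyme, and Gls2 and Glud1, whose products release ammonia from glutamine and glutamate. All 8 were found among the 35441 genes of the deposited count table, and all 8 were among the 14533 genes with more than 100 reads over the 18 mice that entered the tests. The labelled tissue, liver, was borne out by 10 of 10 hepatocyte markers with reads in every mouse.

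Periportal hepatocytes dispose of ammonia through the urea cycle. Carbamoyl phosphate synthetase 1 (Cps1), switched on by the N-acetylglutamate that Nags makes, and ornithine transcarbamylase (Otc) work in the mitochondrion, and argininosuccinate synthetase (Ass1), argininosuccinate lyase (Asl) and arginase 1 (Arg1) work in the cytosol. Ammonia reaches Cps1 partly from liver-type glutaminase (Gls2) and glutamate dehydrogenase (Glud1), and what escapes is captured as glutamine by glutamine synthetase (Glul) in the hepatocytes around the central vein.

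The mice fell into 6 groups of 3. WT mice were littermates without treatment. Lipa-/- mice lacked exon 4 of Lipa, removed with a CMV-driven Cre in a C57/BL6N background, and were also untreated. rAAV8-treated Lipa-/- mice had received rAAV8.hAAT.LIPA, a vector with HA-tagged human LIPA cDNA under the hepatocyte-specific hAAT promoter, by tail vein injection at 10 to 12 weeks of age. The study compared several doses and chose its middle dose for the longer time course. Livers were taken at 12- and 34-weeks post-injection, which the labels give as 3 and 8 months. Most untreated Lipa-/- mice of the study reached a humane endpoint before 34 weeks, which limits that group as a model of one fixed time. The 34-week libraries carried one study code and the 12-week libraries another, except Lipa-/- mouse 5 with a code of its own, so time and code cannot be told apart.

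Between 17527848 and 25833134 reads were assigned to genes per mouse. Lipa was at 202 to 323 CPM (counts scaled to a common library size) in the 6 WT mice and at 16.7 to 37.0 CPM in the 12 mice with the deletion, and human LIPA was at 523 to 2746 CPM in the 6 treated mice. One WT mouse at 34 weeks (mouse 2) had 23 human LIPA reads. The scaling used the trimmed mean of M-values (TMM), and its factors spread widely, from 0.587 to 0.759 in treated mice at 12 weeks up to 1.37 to 1.69 in Lipa-/- mice at 34 weeks. Reads of the major urinary protein (Mup) genes took 9.11% to 25.045% of the library in treated mice at 12 weeks and 0.0119% to 0.216% in the 6 Lipa-/- mice. Several mice stood apart within their group. At 34 weeks, Lipa-/- mouse 6 was the highest of its group for 8 of the 8 genes, and WT mouse 1 was the highest of its group for 8 of the 8.

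The genes lie on 7 chromosomes. In GRCm39, the build of the count table, Cps1 spans chr1:67161988-67270418, Otc chrX:10118503-10187265, Ass1 chr2:31352181-31410862, Nags chr11:102036339-102040303, Gls2 chr10:128030316-128045873 and Glud1 chr14:34032583-34067642 on the forward strand. Asl spans chr5:130040099-130058088 and Arg1 chr10:24791118-24803817 on the reverse strand. Only Gls2 and Arg1 share a chromosome.

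The 250 bases before the transcription start were compared for the 4 of the 8 genes that had an entry in the RefSeq promoter table (GRCm38.p6): Otc, Ass1, Nags and Glud1. The promoters of Otc and Ass1 are shown because Otc had the largest fall of the 8 at 34 weeks and Ass1 the highest level. Both are on the forward strand, Otc at chrX:10252055-10252304 and Ass1 at chr2:31470020-31470269 of that build.
Otc: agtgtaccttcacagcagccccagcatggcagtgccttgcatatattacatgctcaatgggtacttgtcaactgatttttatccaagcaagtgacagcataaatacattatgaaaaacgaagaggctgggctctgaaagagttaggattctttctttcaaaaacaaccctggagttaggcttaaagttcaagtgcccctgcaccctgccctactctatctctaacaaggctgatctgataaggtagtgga
Ass1: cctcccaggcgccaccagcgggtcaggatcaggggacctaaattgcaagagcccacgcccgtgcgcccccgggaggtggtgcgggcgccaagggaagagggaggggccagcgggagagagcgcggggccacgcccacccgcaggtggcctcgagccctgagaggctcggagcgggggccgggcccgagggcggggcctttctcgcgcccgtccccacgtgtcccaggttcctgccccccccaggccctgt
The windows differed in base composition, with a GC content of 43.6% for Otc, 55.6% for Nags, 75.6% for Ass1 and 82.0% for Glud1, against a median of 52.4% over all 32851 promoters of the table. None of 6 motifs searched on both strands was found in any of the 4 windows. These were TATAAA, present in 12.4% of all promoters, CCAAT (33.8%), the C/EBP type TTGCNNAA (9.56%), the HNF4 type CAAAGTCCA (0.384%), the cAMP response element TGACGTCA (1.55%) and the glucocorticoid receptor site TGTTCT (16.1%). The lack of a match says only that these letters are not in these bases.

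Levels per length were compared in TPM, the length-corrected share of a transcript in its library. In WT mice at 12 weeks Ass1 was by far the highest, at 3150 ± 254 TPM (SD, n = 3), followed by Arg1 at 1139 ± 16.3 TPM. Cps1 (458 ± 81.9 TPM) and Glud1 (446 ± 53.0 TPM) came next and overlapped. Asl was at 301 ± 8.92 TPM, above Otc at 227 ± 18.9 TPM and Gls2 at 210 ± 29.2 TPM, which overlapped each other. Nags was lowest at 41.8 ± 5.07 TPM. Ass1 remained first, Arg1 second and Nags last in all 6 groups, although Ass1 and Arg1 overlapped in Lipa-/- mice at 34 weeks, as did Otc and Nags. Over the 5 cycle enzymes, summed TPM was 5276 ± 351 in WT mice and 3685 ± 460 in Lipa-/- mice at 12 weeks, and 4779 ± 13.4 and 2074 ± 802 at 34 weeks (SD, n = 3). Otc contributed 4.53% ± 0.837 of that sum in WT mice and 2.40% ± 0.0801 in Lipa-/- mice at 34 weeks, and Arg1 contributed 24.9% ± 3.55 and 31.1% ± 2.49 (SD, n = 3).

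**Figure D1:**
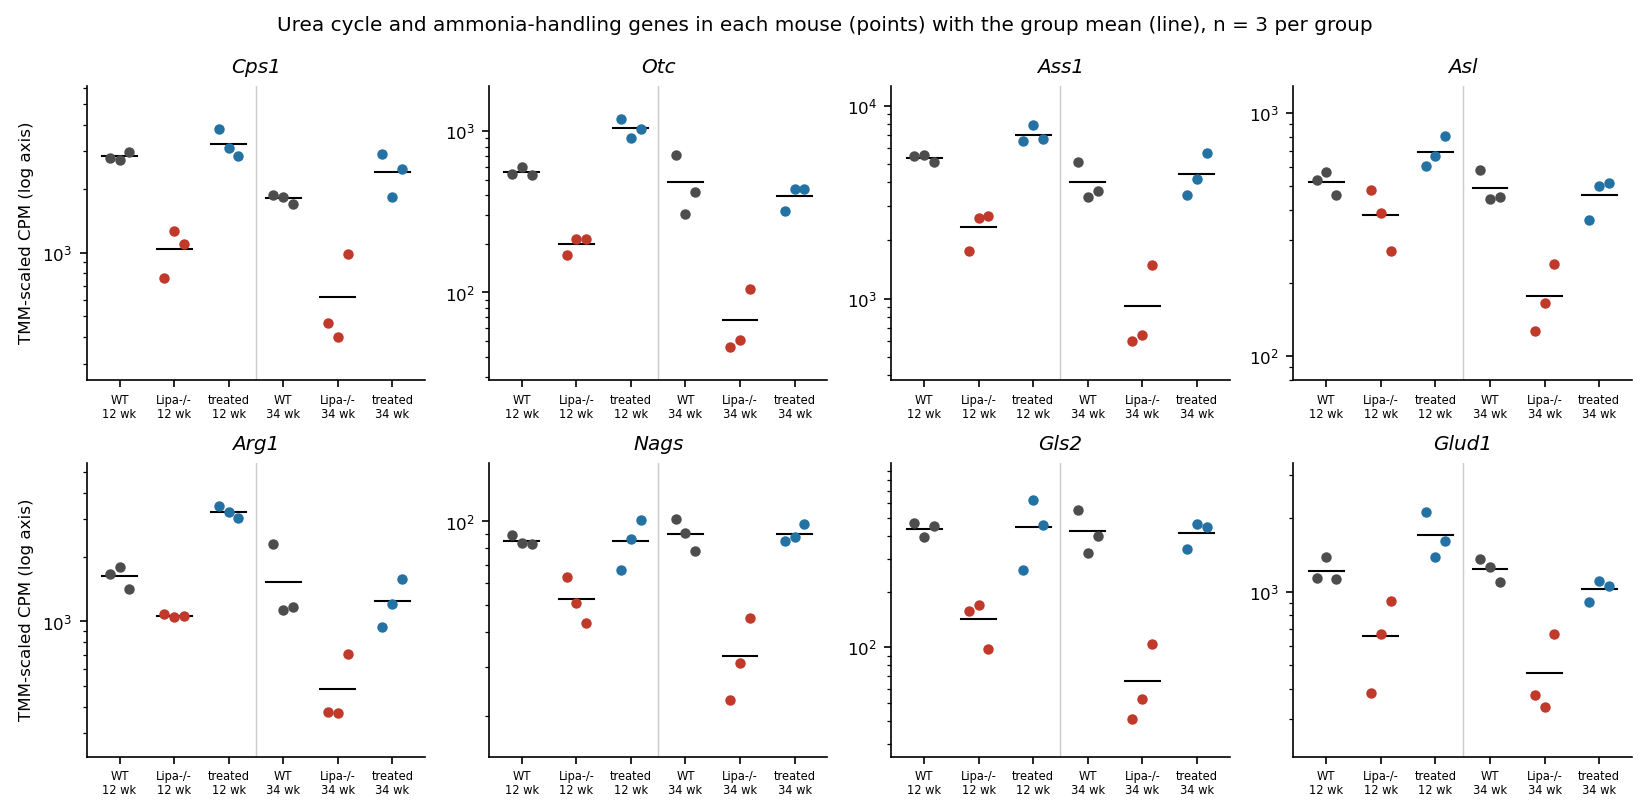
TMM-scaled CPM (log axis) of the 8 genes in each mouse (points) with the mean of the group (line), for WT, Lipa-/- and rAAV8-treated Lipa-/- (treated) mice at 12- and 34-weeks post-injection, n = 3. At 34 weeks the 3 Lipa-/- mice lie below the 3 WT mice in all 8 panels, and in every one Lipa-/- mouse 6 is the highest of its group.

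The first question was how the genes differed between untreated Lipa-/- mice and WT mice. Of the 8 genes, 6 (Cps1, Otc, Ass1, Nags, Gls2 and Glud1) were lower at 12 weeks and all 8 were lower at 34 weeks, by edgeR's quasi-likelihood test at an adjusted p under 0.05 over all genes. Over all genes tested, 16.3% were lower by the same rule at 12 weeks and 23.5% at 34 weeks. With the study's further limit of an absolute log2 fold change over 1, 4 genes were lower at 12 weeks (9.06% of all genes) and 8 at 34 weeks (15.7%). In CPM, the 3 Lipa-/- mice lay below the 3 WT mice without overlap for 7 genes at 12 weeks (24.1% of all genes) and for 8 at 34 weeks (29.8%). The 8 genes had a median log2 fold change of -1.04 at 12 weeks and -1.60 at 34 weeks, beside 0.02 and -0.03 over all genes tested.

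Among the mitochondrial steps, Otc had the largest fall at 34 weeks. It was at 543, 601 and 538 CPM in WT mice and 170, 216 and 214 CPM in Lipa-/- mice at 12 weeks (log2 fold change -1.49 ± 0.33 SE, edgeR adjusted p = 0.0018). At 34 weeks it was at 714, 308 and 419 CPM in WT mice and 45.8, 50.6 and 105 CPM in Lipa-/- mice, and the log2 fold change was -2.84 ± 0.34 (SE; edgeR adjusted p = 5.55e-06). No Lipa-/- mouse reached the lowest WT mouse at either time, although WT mouse 1 stood well above the other WT mice at 34 weeks.

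Cps1, the entry point of the cycle, was at 2802, 2747 and 2979 CPM in WT mice at 12 weeks and at 761, 1263 and 1101 CPM in Lipa-/- mice. The log2 fold change was -1.45 ± 0.32 (SE; edgeR adjusted p = 0.00189). At 34 weeks the WT mice were at 1879, 1831 and 1704 CPM, and the Lipa-/- mice were at 466, 401 and 989 CPM, a log2 fold change of -1.55 ± 0.32 (SE; edgeR adjusted p = 0.000845). The groups were apart at both times. Nags, which makes the activator of Cps1, was at 83.0 to 89.3 CPM in WT mice and 43.1 to 63.3 CPM in Lipa-/- mice at 12 weeks, and at 78.3 to 102 CPM and 22.8 to 45.0 CPM at 34 weeks. Its log2 fold changes were -0.70 ± 0.23 and -1.46 ± 0.24 (SE; edgeR adjusted p = 0.0237 and 9.07e-05). The call of Nags at 12 weeks was lost with total counts, with hepatocyte marker scaling and with TPM (limma adjusted p = 0.522).

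Of the cytosolic enzymes, Ass1 was lower past the test at both times with TMM scaling. Its levels were 5466, 5555 and 5076 CPM in WT mice and 1769, 2630 and 2672 CPM in Lipa-/- mice at 12 weeks, with a log2 fold change of -1.19 ± 0.34 (SE; edgeR adjusted p = 0.0112). At 34 weeks they were 5074, 3361 and 3608 CPM in WT mice and 604, 649 and 1498 CPM in Lipa-/- mice, with a log2 fold change of -2.13 ± 0.35 (SE; edgeR adjusted p = 0.000111). Neither time showed an overlap. The call of Ass1 at 12 weeks was lost with total counts, with hepatocyte marker scaling and with TPM (limma adjusted p = 0.0804).

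Asl and Arg1, the last steps, were lower past the test at 34 weeks. Asl was at 528, 572 and 461 CPM in WT mice and 482, 387 and 271 CPM in Lipa-/- mice at 12 weeks, where the groups overlapped and the log2 fold change was -0.45 ± 0.26 (SE; edgeR adjusted p = 0.191). The sign changed with total counts (0.02) and with TPM (0.20), and Asl passed in neither. At 34 weeks the WT mice were at 584, 442 and 451 CPM and the Lipa-/- mice at 127, 166 and 239 CPM, a log2 fold change of -1.47 ± 0.27 (SE; edgeR adjusted p = 0.000277). Arg1 was at 1670, 1801 and 1423 CPM in WT mice and at 1080, 1054 and 1055 CPM in Lipa-/- mice at 12 weeks. These groups did not overlap, but the log2 fold change of -0.62 ± 0.31 did not pass (SE; edgeR adjusted p = 0.13). At 34 weeks Arg1 was at 2291, 1133 and 1167 CPM in WT mice and 377, 373 and 704 CPM in Lipa-/- mice, a log2 fold change of -1.66 ± 0.32 (SE; edgeR adjusted p = 0.000433).

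Both genes that supply ammonia to the cycle were also lower past the test at both times with TMM scaling. Gls2 was at 468, 396 and 451 CPM in WT mice and 157, 170 and 97.5 CPM in Lipa-/- mice at 12 weeks. At 34 weeks it was at 554, 324 and 398 CPM in WT mice and 41.1, 52.9 and 104 CPM in Lipa-/- mice, so that the highest Lipa-/- mouse stayed below the lowest WT mouse at both times. Its log2 fold changes were -1.63 ± 0.36 at 12 weeks and -2.69 ± 0.38 at 34 weeks (SE; edgeR adjusted p = 0.00192 and 2.29e-05). Glud1 was at 1132, 1381 and 1131 CPM in WT mice and 384, 671 and 914 CPM in Lipa-/- mice at 12 weeks, and at 1360, 1260 and 1099 CPM and 377, 337 and 672 CPM at 34 weeks. Its log2 fold changes were -0.89 ± 0.31 and -1.42 ± 0.32 (SE; edgeR adjusted p = 0.033 and 0.00146). The call of Glud1 at 12 weeks was lost with total counts, with TPM and with hepatocyte marker scaling (edgeR adjusted p = 0.348 for the last).

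The calls at 34 weeks held in each of the 6 fits that left out one of these mice, for all 8 genes. At 12 weeks, Cps1, Otc and Gls2 held in each of the 6 fits, Ass1 in 5, Nags in 3 and Glud1 in 1. Nags was lost without WT mouse 1 or Lipa-/- mouse 8 or 9, and Glud1 held only without Lipa-/- mouse 9. Without Lipa-/- mouse 5, the mouse of its own study code, 4 genes were lower at 12 weeks, and Ass1 (log2 fold change -1.02, edgeR adjusted p = 0.0517) and Glud1 (-0.62, edgeR adjusted p = 0.136) did not pass.

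**Figure D2:**
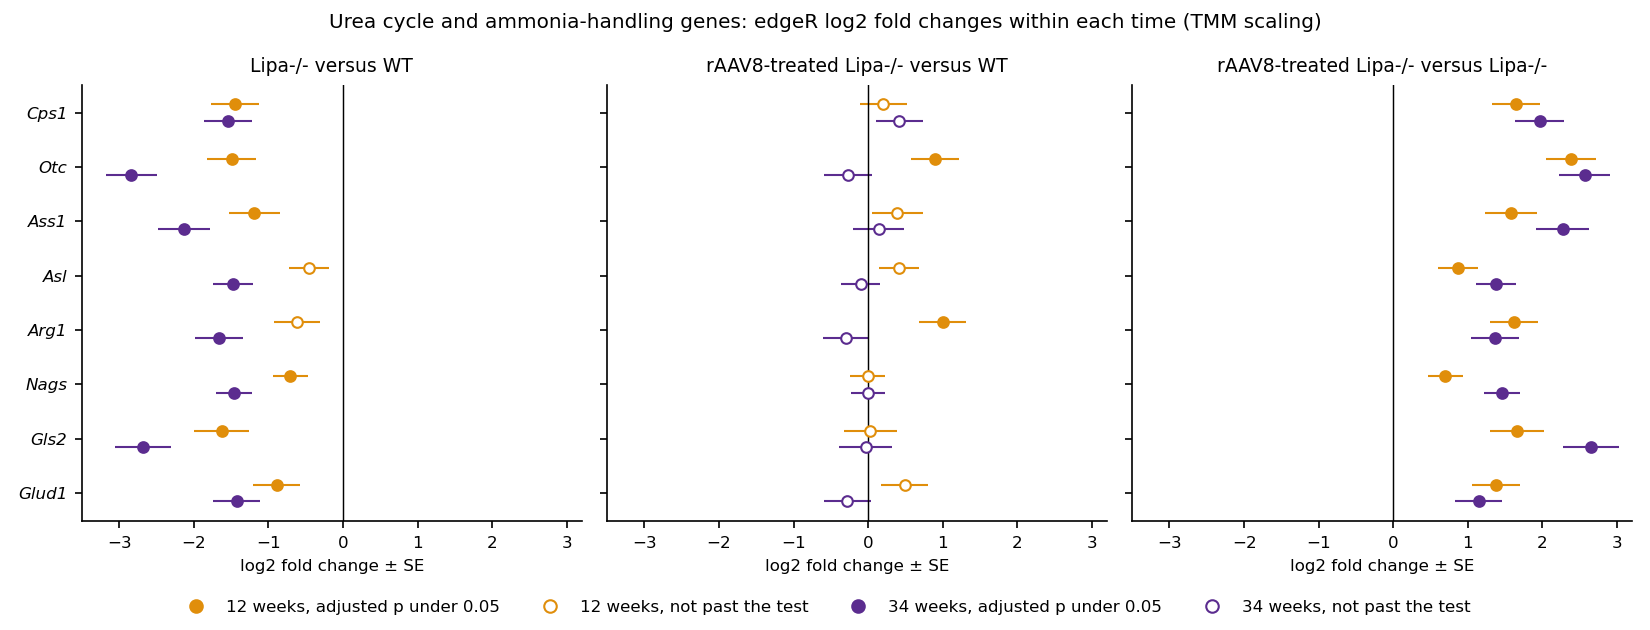
Log2 fold changes (x axis) of the 8 genes with their SE in 3 comparisons, each at 12 weeks (orange) and 34 weeks (purple); filled points are past an edgeR adjusted p of 0.05. All 8 genes are filled and below 0 for Lipa-/- versus WT at 34 weeks, and no gene is filled for treated versus WT at 34 weeks.

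The next question was how treatment changed these genes within Lipa-/- mice. All 8 were higher in rAAV8-treated than in untreated Lipa-/- mice at 12 weeks, where 23.8% of all genes were higher past the test, and all 8 at 34 weeks, where 19.6% were. With an absolute log2 fold change over 1 in addition, 6 genes were higher at 12 weeks (16.2% of all genes) and 8 at 34 weeks (12.8%). The groups did not overlap for 8 of 8 genes at 12 weeks (26.6% of all genes) or at 34 weeks (27.4%). The increase ranged from 0.70 ± 0.23 for Nags to 2.39 ± 0.34 for Otc at 12 weeks on the log2 scale, and from 1.15 ± 0.32 for Glud1 to 2.65 ± 0.38 for Gls2 at 34 weeks (SE; edgeR adjusted p at most 0.0191 and 0.00777). At 12 weeks, Asl was lost without treated mouse 12 or Lipa-/- mouse 9 (edgeR adjusted p = 0.0571 and 0.058), and Nags without treated mouse 12 or Lipa-/- mouse 8 or 9 (0.103, 0.0538 and 0.0769). These comparisons use the same untreated Lipa-/- mice as those with WT mice above.

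Otc in treated mice was at 1189, 910 and 1033 CPM at 12 weeks and at 318, 439 and 439 CPM at 34 weeks. Ass1 was at 6559, 7894 and 6692 CPM at 12 weeks and at 3452, 4165 and 5655 CPM at 34 weeks, and Cps1 at 3818, 3114 and 2866 CPM and at 2910, 1840 and 2485 CPM. Every treated mouse was above every untreated Lipa-/- mouse of the same time for these 3 genes. Gls2 varied most among treated mice at 12 weeks, at 263, 623 and 457 CPM, and lay at 339, 461 and 446 CPM at 34 weeks. Asl was at 607 to 808 CPM at 12 weeks and 364 to 514 CPM at 34 weeks, Nags at 66.8 to 102 CPM and 85.0 to 98.3 CPM, and Glud1 at 1384 to 2115 CPM and 905 to 1110 CPM.

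Against WT mice, treated mice at 34 weeks differed past the test in none of the 8 genes (0 of 8, with 0 at an unadjusted p under 0.05 and 0 by DESeq2, which was run with gene lengths as offsets throughout). By the same test only 0.22% of all genes differed in either direction, and 8.89% did not overlap, against 0 of the 8. The log2 fold changes ran from -0.30 ± 0.31 for Arg1 to 0.42 ± 0.32 for Cps1 (SE; edgeR adjusted p of at least 0.965). Arg1 in treated mice, for example, was at 946, 1206 and 1584 CPM, within the range of the WT mice for 2 of the 3. A miss of the threshold does not show equal levels: 2 SE around the value for Otc reached from -0.91 to 0.37.

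At 12 weeks, Otc and Arg1 were higher in treated than in WT mice and the other 6 genes did not pass. Arg1 stood at 3461, 3254 and 3055 CPM in treated mice, a log2 fold change of 1.00 ± 0.31 (SE; edgeR adjusted p = 0.0227), and Otc had a log2 fold change of 0.90 ± 0.32 (SE; edgeR adjusted p = 0.0399). Mitochondrially encoded genes took 1.53% to 3.38% of the reads in treated mice and 4.63% to 7.19% in WT mice at 12 weeks, without overlap, and their part in the result was not tested. For comparison, 19.4% of all genes were higher and 17.5% lower past the test. The groups did not overlap, with treated mice higher, for 5 of the 8 genes (27.7% of all genes): Otc, Ass1, Asl, Arg1 and Glud1. Both calls depended on single mice and on the scaling. Otc passed in 1 of the 6 fits that left out a mouse (that without treated mouse 11) and Arg1 in 3 (without treated mouse 11 or 12 or WT mouse 2), and no gene passed with total counts or with TPM, where Otc was at 0.48 and 0.22 and Arg1 at 0.60 and 0.34.

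**Figure D3:**
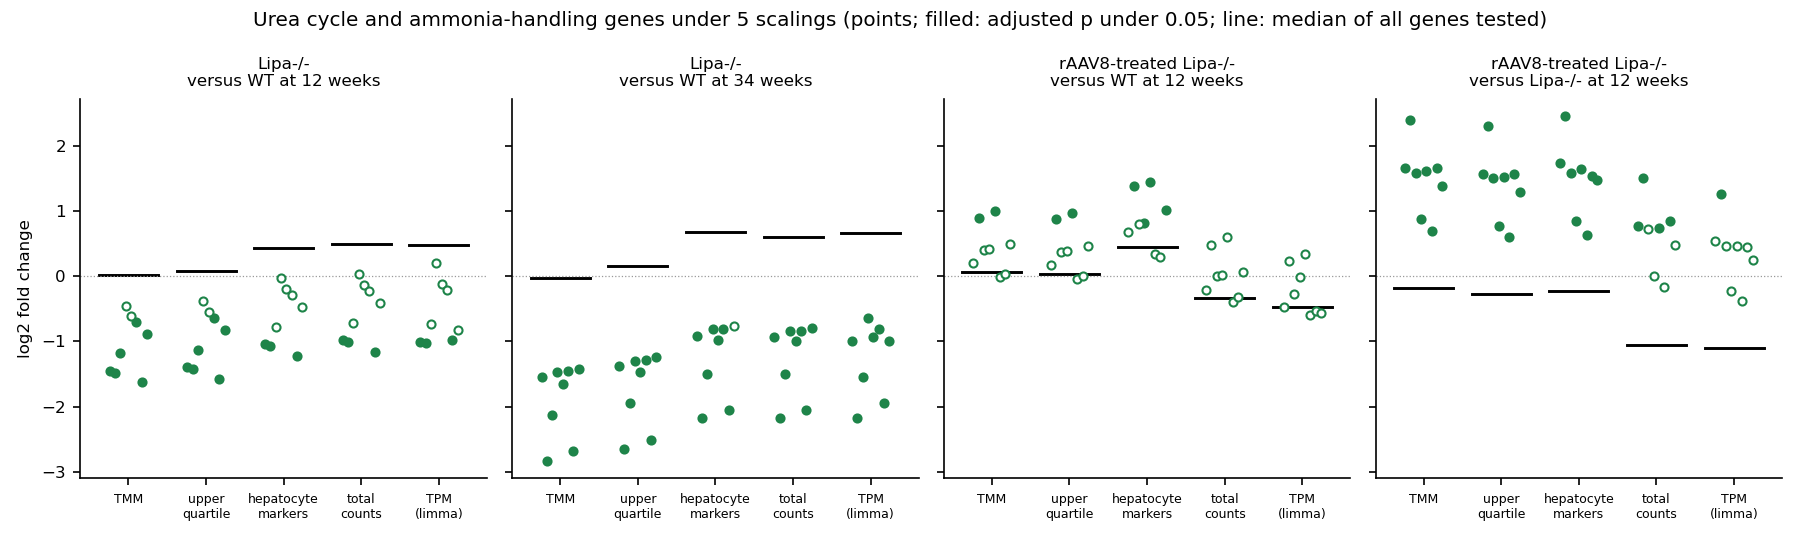
Log2 fold changes of the 8 genes (points; filled past an adjusted p of 0.05) in 4 comparisons under 5 scalings, with the median of all genes tested as a line. The points and the median line move together between scalings, as they must for every scaling but TPM, which apply a factor per library. In the Lipa-/- versus WT panels all 8 points lie below the line under each of the 5.

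The scaling shifted all genes together, as the plot of 5 scalings shows. Relative to TMM, total counts raised the median over all genes (log2 fold change) by 0.47 at 12 weeks and by 0.63 at 34 weeks for Lipa-/- versus WT mice, and moved it by -0.87 for treated versus untreated mice at 12 weeks. With total counts, 3 of the 8 genes (Cps1, Otc and Gls2) were lower in Lipa-/- mice at 12 weeks and 8 at 34 weeks. Scaling to the hepatocyte markers and TPM left the same 3 at 12 weeks. At 34 weeks hepatocyte marker scaling left 7, without Glud1. For treated versus untreated mice at 12 weeks, total counts left 4 of the 8 and TPM left 1, Otc, and Asl and Nags changed sign. At 34 weeks total counts left 7, without Glud1 (edgeR adjusted p = 0.0846), and scaling to the hepatocyte markers left 6, without Glud1 and Arg1 (log2 fold change 0.42 and 0.65, edgeR adjusted p = 0.339 and 0.101). Set against that median, the 8 were below it for Lipa-/- versus WT mice at both times, and above it for treated versus untreated mice at both times, under all 5 scalings. Every scaling but TPM applies a factor per library, which moves each gene and the median alike. Their distances to the median were therefore nearly fixed in advance and are no separate check. The median distance for Lipa-/- versus WT mice was -1.06 with TMM and -1.05 with total counts at 12 weeks, and -1.58 and -1.57 at 34 weeks. With TPM, which also uses lengths, it was -1.24 at 12 weeks and -1.65 at 34 weeks. The split of calls over all genes moved too. At 12 weeks, 58.5% of the genes past the test were higher in Lipa-/- mice with TMM and 84.1% with total counts.

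Effective transcript lengths, which enter TPM, were stable for Cps1, Otc, Ass1 and Arg1 but not for Asl, Gls2, Glud1 and, to a smaller extent, Nags. At 12 weeks Asl was modelled at 1362 to 1518 bases in WT mice and 1094 to 1423 bases in Lipa-/- mice, Gls2 at 1657 to 1913 and 1402 to 1572 bases, and Glud1 at 2184 to 2407 and 2723 to 3051 bases. In treated mice at 12 weeks Glud1 was at 2943 to 3045 bases. Nags at 12 weeks was at 1714 to 1758 bases in WT mice, 1682 to 1696 bases in Lipa-/- mice and 1570 to 1689 bases in treated mice. Whether these genes switched transcripts was not tested.

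Between 12 and 34 weeks, WT mice showed no change in the 8 genes past the test (0 of 8, 0 at an unadjusted p under 0.05, 0 by DESeq2), beside 0.33% of all genes. Cps1 and Ass1 were lower at 34 weeks without overlap, as were 4.82% of all genes, with log2 fold changes of -0.66 ± 0.32 and -0.42 ± 0.34 (SE; edgeR adjusted p = 0.661 and 0.968). In untreated Lipa-/- mice Otc alone was lower at 34 than at 12 weeks, by a log2 fold change of -1.57 ± 0.33 (SE; edgeR adjusted p = 0.0434), beside 0.523% of all genes that changed. Otc, Ass1, Asl and Arg1 did not overlap between the times (4 of 8, beside 16% of all genes). This call was lost in 5 of the 6 fits that left out a mouse, all but that without mouse 6 of the 34-week group. Without Lipa-/- mouse 6 of the 34-week group, 7 of the 8 genes were lower at 34 weeks, and with DESeq2 and gene lengths as offsets, 5 were. In treated mice Otc and Arg1 were lower at 34 weeks, each by -1.39 on the log2 scale (SE 0.33 and 0.32; edgeR adjusted p = 0.00352 and 0.00301). The groups did not overlap, with lower values at 34 weeks, for 5 of the 8 (25.1% of all genes). Here 45.2% of all genes changed past the test, and with TPM neither gene passed, whereas Nags was higher at 34 weeks (limma log2 fold change 1.02, adjusted p = 0.00227).

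The difference of these effects between the times was tested with an interaction. For the effect of Lipa-/- versus WT, no gene of the 8 passed, although 4 had an unadjusted p under 0.05 (0 by DESeq2), beside 0.0619% of all genes past the test. The interaction was negative for all 8, from -0.10 ± 0.45 for Cps1 to -1.35 ± 0.46 for Otc (SE; edgeR adjusted p of at least 0.313). The deeper fall at 34 weeks was therefore not shown to differ from that at 12 weeks for any of them. For the effect of treated versus WT, Arg1 passed narrowly, at -1.29 ± 0.44 (SE; edgeR adjusted p = 0.0496), beside 19.6% of all genes. It was lost with total counts and in 9 of the 12 fits that left out a mouse (edgeR adjusted p of 0.0556 to 0.158). It held without treated mouse 12 or WT mouse 2 or 3 of the 34-week groups.

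Arginine is also split by arginase 2 (Arg2), the mitochondrial arginase, which moved the other way from Arg1 at 34 weeks. Arg2 was near the limit of detection in WT mice, with 1, 6 and 8 reads at 12 weeks and 6, 5 and 4 reads at 34 weeks. Lipa-/- mice had 23.7, 39.3 and 55.7 estimated reads at 12 weeks and 89.6, 63.4 and 83.8 at 34 weeks. Arg2 was higher past the test at both times (edgeR adjusted p = 0.00901 and 0.000665), but stayed far below Arg1 in TPM, with a lowest ratio of Arg1 to Arg2 of 134 in any Lipa-/- mouse at 34 weeks. Inducible nitric oxide synthase (Nos2), another enzyme that uses arginine, had 2, 0 and 1 reads in WT mice and 14, 20 and 16 reads in Lipa-/- mice at 12 weeks, and 0, 1 and 2 reads against 44, 26 and 41 reads at 34 weeks. These are counts at the floor in WT mice, and no fold change is given for Nos2.

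**Figure D4:**
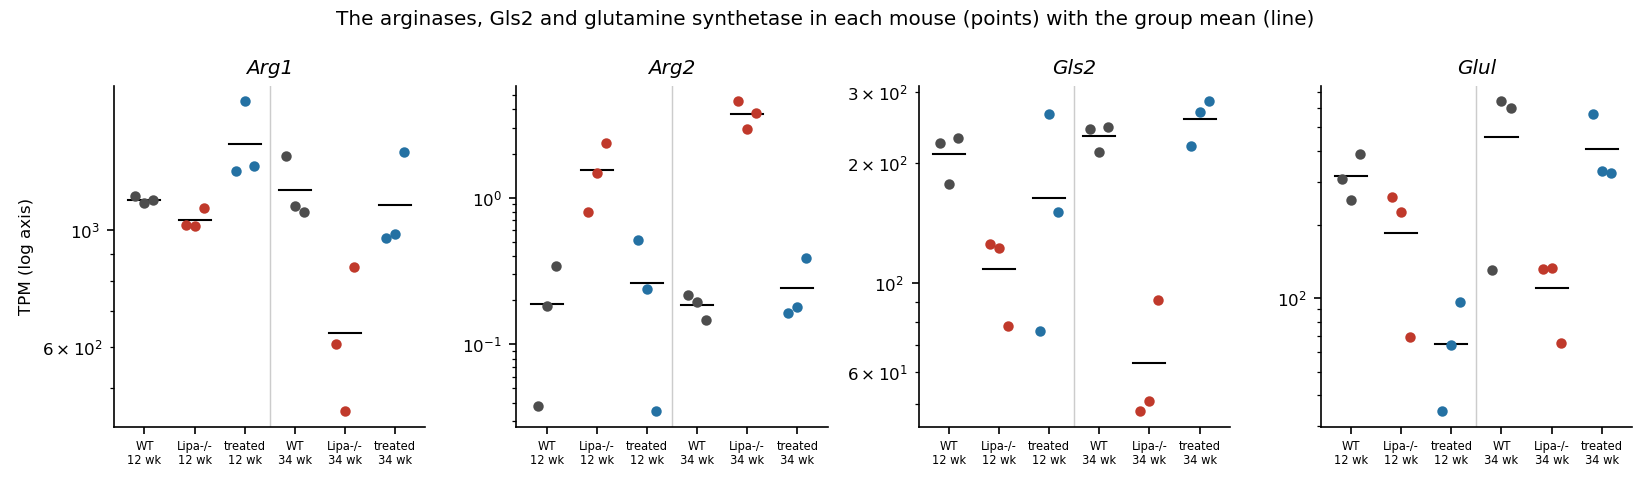
TPM (log axis) of Arg1, Arg2, Gls2 and Glul in each mouse (points) with the mean of the group (line), n = 3. The 3 Lipa-/- mice lie above the 3 WT mice for Arg2 at both times and below them for Gls2, while WT mouse 1 is low in Glul at 34 weeks.

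Glutamine synthetase, the capture step, was lower at 34 weeks. Glul was at 447, 1379 and 1364 CPM in WT mice and 175, 237 and 114 CPM in Lipa-/- mice (log2 fold change -2.60 ± 0.51 SE, edgeR adjusted p = 0.000541). WT mouse 1, the highest of its group for the 8 genes above, was the lowest of its group for Glul. At 12 weeks Glul was at 923, 864 and 1015 CPM in WT mice and 586, 500 and 141 CPM in Lipa-/- mice and did not pass (log2 fold change -1.19 ± 0.49 SE, edgeR adjusted p = 0.0646). Treated mice at 12 weeks were at 196, 253 and 466 CPM, below all WT mice (log2 fold change -1.61 ± 0.50 SE, edgeR adjusted p = 0.0204; lost without treated mouse 10 or 11 or WT mouse 3, adjusted p = 0.0794, 0.0619 and 0.0654), and at 34 weeks they were at 1178, 849 and 767 CPM, within the WT range.

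Beyond the 8 genes, 64 others of the pathway were taken from lists of carriers, related enzymes and regulators, of which 61 were tested. In Lipa-/- mice 28 were lower and 9 higher at 12 weeks, and 36 were lower and 8 higher at 34 weeks. Over all genes tested, 16.3% were lower and 22.9% higher at 12 weeks, and 23.5% were lower and 23.8% higher at 34 weeks. These shares also stand beside the counts of each list below. In treated mice 15 were lower and 6 higher than in WT mice at 12 weeks, beside 17.5% lower and 19.4% higher over all genes. At 34 weeks 1 was higher, beside 0.22% of all genes that differed in either direction.

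Of 14 carriers tested, 5 were lower and 2 higher at 12 weeks and 8 lower and 1 higher at 34 weeks, with a median log2 fold change of -0.74 and -1.29. Citrin (Slc25a13), which brings aspartate out of the mitochondrion for Ass1, fell from 198 to 200 CPM in WT mice to 44.2 to 72.0 CPM in Lipa-/- mice at 12 weeks, and was at 178 to 213 CPM and 35.6 to 51.4 CPM at 34 weeks (log2 fold change -1.67 ± 0.22 and -2.19 ± 0.22 SE, edgeR adjusted p = 1.54e-05 and 8.77e-07). The glutamine carrier Slc38a3, the amino acid carrier Slc38a4 and the aquaglyceroporin Aqp9, which passes urea, were the most abundant and were lower at 34 weeks by -1.32, -1.63 and -1.55 on the log2 scale. The cationic amino acid carrier Slc7a1, at 2, 11 and 10 reads in WT mice and 43, 36 and 57 reads in Lipa-/- mice at 12 weeks, was higher at both times. The glutamate carrier Slc1a2 was lower at 34 weeks (-2.33 ± 0.53 SE), and the urea transporter Slc14a1 had at most 17 reads in any WT or Lipa-/- mouse.

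Of 13 glutamine, glutamate and proline enzymes, 6 were lower and 2 higher at 12 weeks and 8 lower and 3 higher at 34 weeks. Ornithine aminotransferase (Oat) fell by 1.42 and 2.99 on the log2 scale and hydroxyproline dehydrogenase (Prodh2) by 1.64 and 3.38 (edgeR adjusted p at most 0.00471). The call of Oat at 12 weeks was lost with total counts, hepatocyte marker scaling and TPM (edgeR or limma adjusted p of 0.0558 to 0.0578). Aldh18a1, which makes the precursor of proline and ornithine, rose from 0.526 to 0.750 CPM in WT mice to 3.41 to 6.95 CPM in Lipa-/- mice at 12 weeks. Asparagine synthetase (Asns), which uses glutamine as nitrogen donor, was the 1 gene of the 64 that still differed from WT in treated mice at 34 weeks. It was at 0.354, 0.315 and 0.272 CPM in WT mice, 6.37, 6.92 and 8.05 CPM in Lipa-/- mice and 4.27, 1.64 and 10.2 CPM in treated mice at that time. The log2 fold change of treated against WT mice was 4.10 ± 0.65 (SE; edgeR adjusted p = 0.0114). The call was lost without WT mouse 2 or 3 (edgeR adjusted p = 0.0714 and 0.108) and in a fit of these 6 mice alone (0.267). The WT mice had 6 to 8 reads of Asns, and treated mouse 12, the highest, was also the treated mouse with a neutrophil marker sum of 788 CPM, against 1.64 and 2.97 CPM in the others. Its part in the result was not tested.

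Among 14 genes of arginine and ornithine use, 5 were lower and 5 higher at 12 weeks and 4 were lower and 4 higher at 34 weeks. Over all genes, 16.3% were lower and 22.9% higher at 12 weeks, and 23.5% and 23.8% at 34 weeks. Agmatinase (Agmat) fell by 1.20 and 2.93 on the log2 scale, and spermidine acetyltransferase (Sat1), a polyamine enzyme, rose by 1.93 and 1.43. Guanidinoacetate methyltransferase (Gamt) was at 0.01 ± 0.28 at 12 weeks and -1.03 ± 0.28 at 34 weeks (log2 fold change, SE; edgeR adjusted p = 0.989 and 0.00662).

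Of 7 ammonia-releasing amino acid enzymes, 4 were lower at 12 weeks and 6 at 34 weeks, and none was higher. Histidine ammonia-lyase (Hal) was at 361 to 512 CPM in WT mice and 56.7 to 77.1 CPM in Lipa-/- mice at 12 weeks, and at 330 to 559 CPM and 8.80 to 42.8 CPM at 34 weeks. Its log2 fold changes were -2.66 ± 0.45 and -4.28 ± 0.49 (SE; edgeR adjusted p = 0.000192 and 2.82e-06), larger than any of the 8 genes. The glycine cleavage genes Gldc and Amt were lower by -2.42 and -2.22 at 34 weeks on the log2 scale and Gcsh by -1.83, Ddo (D-aspartate oxidase) by -1.96 and Sds (serine dehydratase) by -1.07. The groups overlapped for Sds, and its call was lost in 4 of the 6 fits without a mouse (WT mouse 1 or 3, Lipa-/- mouse 4 or 5). Mitochondrial carbonic anhydrase 5A (Car5a), which supplies bicarbonate to Cps1, was at 85.1 to 91.9 CPM in WT mice and 16.9 to 18.7 CPM in Lipa-/- mice at 12 weeks, and at 82.1 to 94.4 CPM and 3.97 to 8.20 CPM at 34 weeks (log2 fold change -2.32 ± 0.25 and -4.05 ± 0.27 SE, edgeR adjusted p = 2.55e-06 and 3.79e-08). The mitochondrial deacylases Sirt3 and Sirt5 were lower by -2.17 and -1.11 on the log2 scale at 34 weeks.

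**Figure D5:**
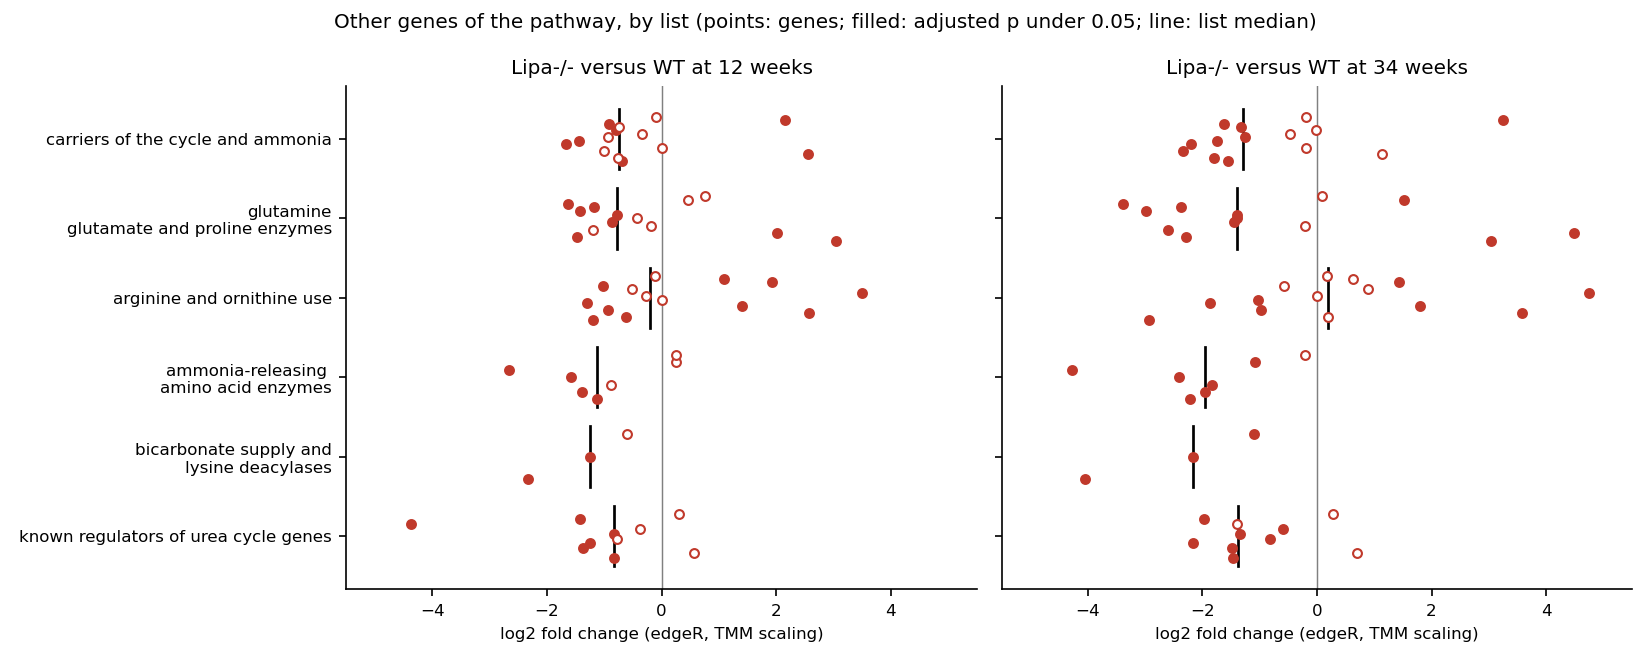
Log2 fold changes of Lipa-/- versus WT mice (x axis) for the 61 other pathway genes tested, by list, at 12 weeks (left) and 34 weeks (right); filled points are past an edgeR adjusted p of 0.05 and the line is the median of the list. Filled points lie on both sides of 0 for carriers, for glutamine, glutamate and proline enzymes and for arginine and ornithine use, and below 0 for the 3 other lists.

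Of 10 genes known to regulate the cycle, 6 were lower at 12 weeks and 7 at 34 weeks, and none was higher with TMM scaling. The glucagon receptor (Gcgr) was at 226 to 308 CPM in WT mice and 102 to 130 CPM in Lipa-/- mice at 12 weeks, and at 216 to 371 CPM and 48.7 to 77.4 CPM at 34 weeks (log2 fold change -1.25 ± 0.26 and -2.17 ± 0.27 SE, edgeR adjusted p = 0.00126 and 7.51e-06). Cebpa was lower by -0.82 and -1.47 and Ppara by -1.42 and -1.98 on the log2 scale. Foxa2 was lower at both times (-1.37 and -1.48). At 12 weeks Cebpa was lost without WT mouse 1 or 3 or Lipa-/- mouse 8 or 9, and Foxa2 without WT mouse 1 or Lipa-/- mouse 9 (edgeR adjusted p up to 0.108 and 0.0831). With total counts, with scaling to the hepatocyte markers and with TPM, Cebpa, Ppara, Foxa2, Slc38a4 and Aqp9 did not pass at 12 weeks, nor did Slc38a3, Gamt, Sds, Sirt5 and Foxa2 at 34 weeks. Hepatocyte marker scaling also ended the calls of Gcgr, Agmat and Ddo at 12 weeks (edgeR adjusted p = 0.0752, 0.0804 and 0.0624), TPM that of Ddo at 12 weeks and those of Cebpa and Slc38a4 at 34 weeks. Onecut1 was lower at 12 weeks by -4.37 ± 0.72 and did not pass at 34 weeks, where the groups overlapped, and it ranged from 15.5 to 66.2 CPM among the WT mice at 12 weeks. Cebpb was at 0.57 ± 0.33 and 0.70 ± 0.33 (log2 fold change, SE) and did not pass (edgeR adjusted p = 0.194 and 0.0978). It was higher past the test at both times with total counts (1.04 and 1.297), hepatocyte marker scaling (0.99 and 1.38) and TPM (0.97 and 1.35), but was lower in treated than in WT mice at 12 weeks (-2.11 ± 0.35 SE, edgeR adjusted p = 0.00196).

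Markers of some other cell types also differed between Lipa-/- and WT mice, while those of others were mixed or mostly did not pass. In bulk liver, fewer hepatocytes and less RNA of a gene per hepatocyte cannot be told apart. The summed level of 11 macrophage markers was 133 to 339 CPM in WT mice and 4267 to 9029 CPM in Lipa-/- mice at 12 weeks, and 243 to 518 CPM and 4328 to 6006 CPM at 34 weeks. Treated mice were at 1066 to 2929 CPM at 12 weeks and 372 to 916 CPM at 34 weeks. The sum of 5 cholangiocyte markers was 29.4 to 58.7 CPM in WT mice and 453 to 2233 CPM in Lipa-/- mice at 12 weeks, and 40.6 to 53.0 CPM and 1018 to 1793 CPM at 34 weeks. The sum of 8 stellate cell markers was 98.2 to 195 CPM and 794 to 1353 CPM at 12 weeks, and 176 to 206 CPM and 1340 to 2590 CPM at 34 weeks. For 7 neutrophil markers it was 0.628 to 2.30 CPM and 123 to 1601 CPM at 12 weeks and 1.01 to 5.37 CPM and 104 to 272 CPM at 34 weeks, with Ly6g and Camp at 0 in all 6 WT mice. Lymphocyte markers (8) summed to 3.98 to 7.61 CPM in WT mice and 10.5 to 14.4 CPM in Lipa-/- mice at 12 weeks, and 4.13 to 10.2 CPM and 7.35 to 19.9 CPM at 34 weeks, with treated mice at 11.5 to 14.7 CPM and 12.0 to 16.5 CPM, above all WT mice of the same time. The sum of 6 sinusoidal endothelial markers was 131 to 180 CPM in WT mice and 111 to 127 CPM in Lipa-/- mice at 12 weeks, and 159 to 175 CPM and 129 to 179 CPM at 34 weeks. The sum of 5 erythroid markers was 218 to 546 CPM and 213 to 261 CPM at 12 weeks, and 247 to 513 CPM and 486 to 987 CPM at 34 weeks. Single markers did not all follow the sums. In Lipa-/- mice 8 of 11 macrophage markers were higher past the test and 1 lower at 12 weeks, and 6 and 2 at 34 weeks. Of 8 stellate markers 6 were higher and 1 lower, then 7 and 1. Of 6 sinusoidal endothelial markers 2 were higher and 2 lower at each time. Of 5 erythroid markers 1 was lower and none higher at each time. Of 8 lymphocyte markers 4 were higher at each time and 1 lower at 34 weeks. The part of these cells in the results was not tested.

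The sum of 10 hepatocyte markers was 85466 to 107505 CPM in WT mice and 76266 to 96941 CPM in Lipa-/- mice at 12 weeks, and 79663 to 100990 CPM and 52203 to 91856 CPM at 34 weeks. Of these 10 markers, 3 were lower and 1 higher in Lipa-/- mice at 12 weeks (median log2 fold change -0.73), and 6 were lower and 2 higher at 34 weeks (-0.97). When each library was scaled to these markers, 7 of the 8 genes were lower past the test at 34 weeks and 3 at 12 weeks. At 34 weeks Otc and Gls2 were at -2.18 and -2.05 (log2 fold change), and Glud1 did not pass (-0.77, edgeR adjusted p = 0.0868). In Lipa-/- mice 4 of 8 periportal and 4 of 12 pericentral markers were lower past the test at 12 weeks, and 6 of 8 and 10 of 12 at 34 weeks, and none was higher. Over all genes, 16.3% were lower at 12 weeks and 23.5% at 34 weeks. The sum of 8 periportal markers was 3191 to 5062 CPM in WT mice and 1401 to 2516 CPM in Lipa-/- mice at 12 weeks, and 2784 to 3847 CPM and 1147 to 1465 CPM at 34 weeks. The sum of 12 pericentral markers was 7593 to 9621 CPM and 2090 to 4382 CPM at 12 weeks, and 8816 to 9308 CPM and 1023 to 1440 CPM at 34 weeks.

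Across the 18 mice the 8 genes varied together, with a Pearson correlation of log2 CPM between 0.77 and 0.98 for the 28 pairs (median 0.91). These values describe 18 mice that differ by group and share their scaling, and carry no test. Among 12591 other genes that averaged 1 CPM or more, the most alike were Abce1 and Arfgap2 for Cps1 (r = 0.97 and 0.96), Cmbl and Iyd for Otc (0.99 and 0.99), Cth and Pxmp2 for Ass1 (0.99 and 0.98), and Mtarc2 and Ndufa6 for Asl (0.98 and 0.97). For Arg1 they were Apoc3 and Ndufb10 (0.99 and 0.99), for Nags Gltpd2 and Hpd (0.98 and 0.97), for Gls2 Rida and Hal (0.99 and 0.98) and for Glud1 Psmd5 and Atp5b (0.98 and 0.97).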

How the data were processed

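Poly(A) RNA of 18 livers was sequenced by the study. The authors estimated counts per gene with Salmon and tximport (GRCm39), and the deposited counts are not scaled. The deposited TPM were computed by the authors within each mouse, with effective lengths in bases. The submitters' processing notes name R 4.3.0 and DESeq2 1.40.1; the authors' table of fold changes and p-values was not used. Counts were rounded and analysed in R 4.3.3 with edgeR 4.0.16: TMM factors, a quasi-likelihood fit with 6 group means, genes with more than 100 reads, Benjamini-Hochberg adjustment over all 14533 genes. Alternatives used DESeq2 1.42.0 with gene lengths as offsets and limma 3.58.1 on log2(TPM + 0.1). The edgeR fit was tested on simulated data with few changed genes, balanced up and down. Those data lacked the broad shifts seen here, so that test does not bear on the choice of scaling. For a single gene, exact permutation of 3 mice per group reaches 0.1 at the lowest. Counting error was not separated from the spread between mice, and it weighs most for genes with few reads. The members and lists were chosen with earlier results of these data known. Genes were named by rule: all 8 members, the 3 most abundant and 3 most changed of each list, Arg2, Glul, and the 2 genes most correlated with each member. Promoters came from RefSeq; no protein sequences were used here. 1 gene of the lists is not reported here. The labels name animals but no pairs.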

Additional observations from a re-analysis of the deposited data

Results flagged for a closer look

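The effect of treatment relative to WT mice differed between 12 and 34 weeks for Arg1. The interaction was -1.29 on the log2 scale (edgeR adjusted p = 0.0496): Arg1 was higher in treated than in WT mice at 12 weeks (1.00) and lay at -0.30 at 34 weeks. The call held in 3 of the 12 fits that left out a mouse, and over all alternatives the edgeR, DESeq2 or limma adjusted p ran from 0.0156 to 0.355. Without WT mouse 1 of the 34-week group the interaction was -0.88 (edgeR adjusted p = 0.158). TMM factors of the treated mice at 12 weeks were the lowest of the series (0.587 to 0.759), and their part in the result was not tested.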

How the results depend on the processing

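With 3 mice a group, depth limits mostly genes with few reads, such as Arg2, Nos2 and Slc14a1. All values here are log2 fold changes or numbers of the 8 genes past an adjusted p of 0.05. The number of genes lower in Lipa-/- mice at 34 weeks (8) stayed within 1.5 times under every alternative run. The number past the test in treated against WT mice at 34 weeks stayed at 0, which does not show equal levels. For Lipa-/- versus WT mice at 12 weeks, 3 genes (Cps1, Otc and Gls2) in place of 6 passed with total counts, with hepatocyte marker scaling and with TPM. For treated versus WT mice at 12 weeks, in place of 2 genes, 0 passed with total counts and TPM, 1 with gene length offsets in edgeR or no filter, 4 with hepatocyte marker scaling, and 0 to 2 with a mouse left out. For treated versus untreated mice at 12 weeks, 4 in place of 8 passed with total counts and 1 with TPM. Here Asl (-0.00623 with total counts, -0.22 with TPM), Nags (-0.17 and -0.39), Aqp9 (-0.82 and -1.13), Sirt5 (-0.79 and -1.26), Slc38a4 (-0.89 with TPM), Sds (-0.98 with TPM) and Gldc (-0.12 with TPM) reversed. For treated versus WT mice at 12 weeks, Ppara reversed to 1.66 with length offsets in DESeq2, 1.61 with length offsets in edgeR and 0.96 with TPM. All of these use effective lengths. For Ppara at 12 weeks the lengths were 220 to 332 bases in treated mice and 675 to 1712 bases in WT mice. The cause was not tested. For Lipa-/- mice between times, 5 in place of 1 passed with DESeq2 and length offsets, 0 with total counts or hepatocyte scaling, and 0 to 7 with a mouse left out. For treated mice between times, in place of 2, 5 passed with hepatocyte scaling, 4 with the length trend removed and, with TPM, 1 other gene (Nags), which was higher. For the change of the treated effect, in place of 1, 2 passed with hepatocyte scaling, 0 with length offsets in edgeR, upper quartile, total counts, the length trend removed, no filter, filterByExpr or TPM, and 0 to 2 with a mouse left out. Mouse numbers share only a number: deviations of same-numbered WT mice correlated at 0.08, -0.24 and 0.46, and with mouse number as a replicate block (3 residual degrees of freedom) 0 genes passed between times in Lipa-/- mice, in treated mice and for the change of the treated effect. Of 897 values of the 8 genes that passed in neither fit, 106 differed in sign from the value reported.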
